A study of Danio rerio with 6 samples.

Results

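In adult zebrafish, 79 genes differed at least 2-fold between night and day in the pineal gland while staying nearly level in the eye and in a mixture of other organs. They were chosen by their own measured night-day differences in log2(FPKM + 1), where FPKM is a fragment count scaled to gene length and library size. The rule asked for at least 5 FPKM in the higher library of each of the 3 tissues, and a night minus day difference of at least 1 in either direction in the pineal gland. It also asked for a difference under 0.4 in either direction in both other tissues. Serotonin and cofactor genes (tph1, ddc, gch1, pts, ahcy), sik1, sik2, globins and genes with symbols starting rps, rpl, hmg, hsp, dnaj or nr4a were left out by name, which removed 2 genes that met the numeric limits, DNAJB12 and NR4A1. Of 32105 genes in the table, 8528 had the required level in all 3 tissues. The 79 members are 0.926% of these, 25 genes higher at night and 54 lower at night in the pineal gland.

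All fish carried the transgene Tg(aanat2:EGFP), were 0.5 to 1.5 years old and lived under a cycle of 12 h light and 12 h dark. It expresses a green fluorescent protein from the control region of aanat2, which was used to find the glands for dissection. Pineal glands, whole eyes and other organs were taken at mid-day (ZT6, 6 h after lights on) and at mid-night (ZT18). A pineal library was 1 pool of 18 glands and an eye library 1 pool of 6 eyes, while a mixed library combined equal amounts of RNA from muscle, ovary, kidney, gill, liver, intestine, heart and brain, each from 4 to 8 fish. Each tissue and time point was thus 1 library, 6 in all, with 7949224 to 15950819 reads behind the values and the fewest in the pineal night library.

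Every night-day difference below compares 1 library with 1 library. It has no replicate check and no test, and the pineal difference is also what chose the members. Ratios are given with 95% exact intervals (Clopper-Pearson) computed from the reads behind the FPKM values, and these cover counting error only. In pooled tissue, a difference in the number of cells of a type and a difference in RNA per cell cannot be told apart. The 7 defining markers of the gland summed to 5582 (day) and 6915 (night) FPKM in the pineal libraries. Their day and night sums were 424.7 and 567.3 in the eye, and 4.30 and 3.64 in mixed tissue. Within the gland 3 of these markers were higher and 4 lower at night, so most of them did not share the larger night sum. Among the higher ones was aanat2, with 490.8 FPKM by day and 1922 at night, a larger rise than that of the sum.

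The fish pineal gland holds photoreceptor cells that sense light directly, contain a circadian clock and make melatonin at night. In these cells serotonin is acetylated by the enzyme encoded by aanat2 and then methylated. In mammals, cyclic AMP acting through protein kinase A controls the acetyltransferase, and a cofactor, tetrahydrobiopterin, is needed for serotonin to be made. A day pool and a night pool cannot show a rhythm.

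Among the 8528 genes, 350 (4.1%) differed at least 2-fold in the pineal gland, 140 higher (1.64%) and 210 lower (2.46%) at night. Of these 350, 81 stayed under 0.4 in both other tissues, 122 did so in mixed tissue but not in the eye, 35 in the eye but not in mixed tissue, and 112 in neither. The same rule turned around gave 170 genes for the eye alone (98 higher and 72 lower at night) and 11 for mixed tissue alone (2 and 9), and 536 and 108 genes (6.29% and 1.27%) differed 2-fold in those tissues. Median ratio rescaling of the libraries gave 35 genes higher (44.9%) and 43 lower (55.1%) at night under the pineal rule, beside 31.6% and 68.4% as deposited. All 25 night-high members stayed at or past 2-fold under that rescaling, and 40 of the 54 day-high members did. The rescaling moved pineal differences upward, with the median over the 8528 genes going from -0.06 to 0.01. The counts on the 2 sides thus depended on scaling, but lower genes remained the larger side after it. Quantile normalization gave 40.3% higher and 59.7% lower. What lies behind the unequal counts was not tested.

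Most members lay close to the limit. The absolute pineal difference was under 1.2 for 49 of the 79, at least 1.5 for 12 and at least 2 for 3, namely CPLX3, OSBPL7 and tcerg1a. Just inside the pineal limit were PRKAR2A at 1.00 and PCBD1 at 1.02 on the night side, and FUBP3, EEPD1 at -1.002 and GCDH at -1.01 on the day side. Just outside were ELAPOR2 (0.98), DPF2 (0.98) and RAB3C (0.96), and SF3A2 (-0.995), PPTC7 (-0.99) and ENO3 (-0.99). At the limit for the other tissues, slc2a3a had 0.39 in the eye and SBNO2 -0.39 in mixed tissue, while MYH9 was left out at 0.40 in the eye with a pineal difference of 1.77. At the level limit, STMN4 passed with 5.16 FPKM in its lowest tissue and TBL3 did not with 4.95.

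**Figure D1:**
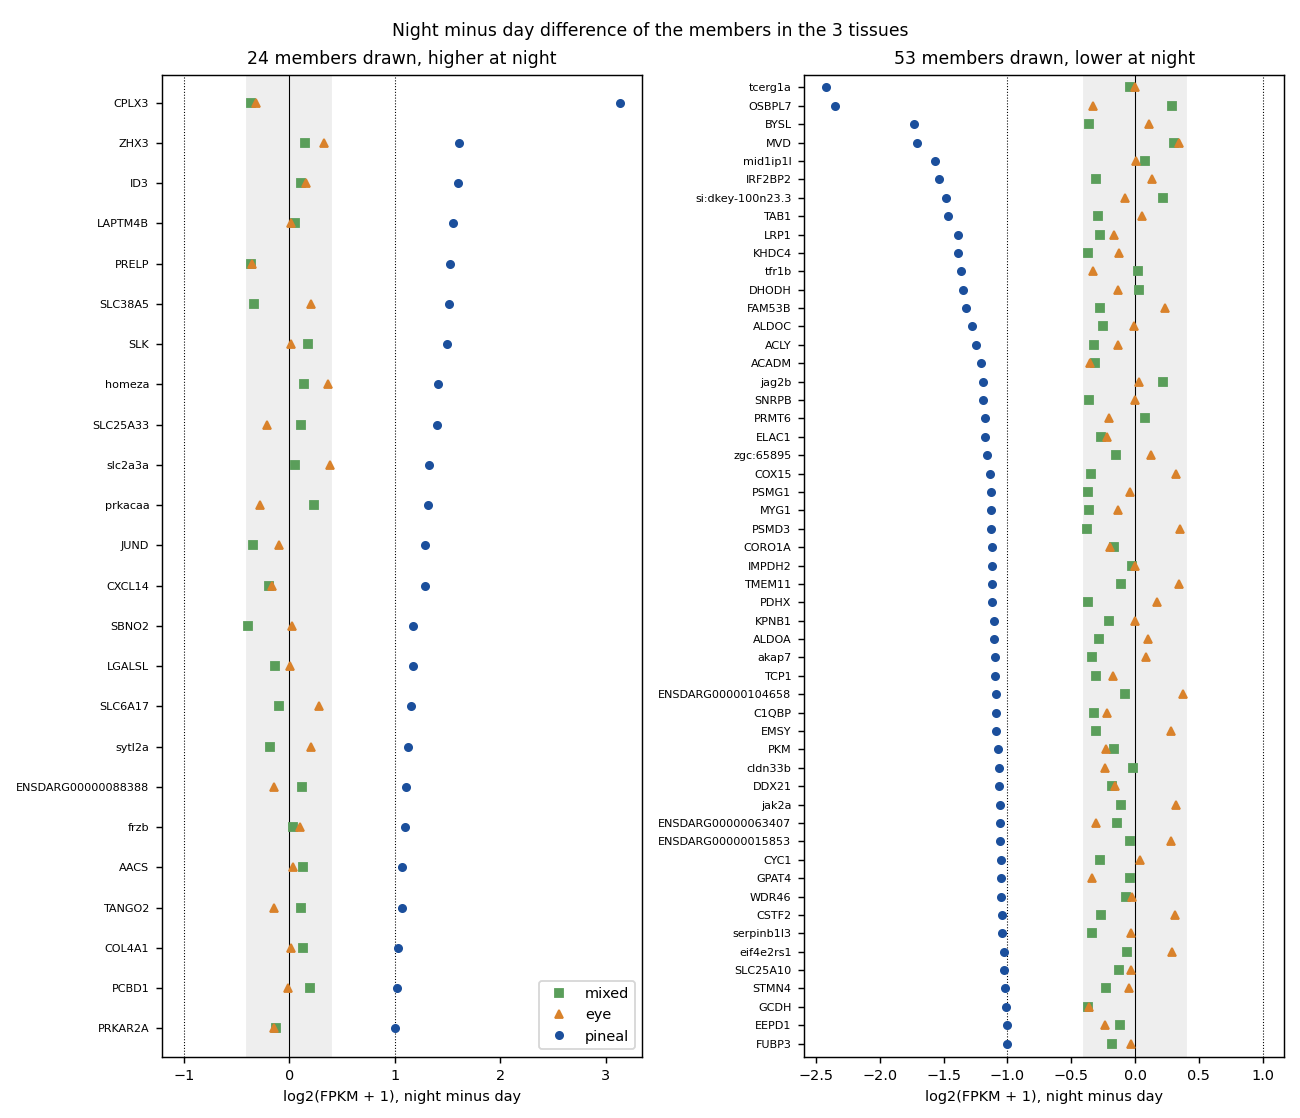
Night minus day difference in log2(FPKM + 1) for 77 of the 79 members (rows, 24 higher and 53 lower at night) in the pineal gland (circles), the eye (triangles) and mixed tissue (squares), 1 library against 1 library. Dotted lines mark a difference of 1 and the grey band the limit of 0.4 that the rule sets; most pineal points sit between 1 and 1.5, and CPLX3, OSBPL7 and tcerg1a lie beyond 2.

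All 79 pineal intervals left out a ratio of 1. For 78 of them the whole interval lay beyond 1.5-fold, and for 37 beyond 2-fold. The exception at 1.5-fold was ENSDARG00000088388, which has no symbol in the table and rested on 21 and 35 reads. The rule asked for a 2-fold pineal difference, so these counts of pineal intervals follow largely from the choice of members. The share of the 8528 genes with such intervals was not computed. In eye and mixed tissue the intervals left out 1 for 39 and 44 members, whose small differences were thus beyond counting error. The share of the 8528 genes for which this holds was not computed, so nothing more is read from these counts. The intervals do not cover library scaling. Median ratio rescaling alone moved the eye median over the 8528 genes from 0.08 to -0.02. In mixed tissue 46 of the 54 day-high members were also lower at night, with a median of -0.22 beside 0.02 over the 8528 genes. In the eye their split was 31 lower and 23 higher. The night-high members split into 14 higher and 11 lower at night in mixed tissue. The share of the 8528 genes on either side of 0 was not computed for eye or mixed tissue.

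Protein kinase A, the main effector of cyclic AMP, was represented by a catalytic and a regulatory subunit, both higher at night. The catalytic subunit gene prkacaa (ENSDARG00000100349) had 51.9 FPKM in the pineal day library and 130.2 in the pineal night library, 69.0 and 56.9 in the eye and 27.6 and 32.5 in mixed tissue. Its night pineal value was the highest of the 6 libraries, and the day value lay between those of mixed tissue and the eye. The night to day ratio was 2.51 (2.41 to 2.62). The regulatory subunit gene PRKAR2A (ENSDARG00000033184) had 65.1 FPKM in the pineal day library and 131 in the pineal night library, 36.6 and 33.0 in the eye and 28.9 and 26.4 in mixed tissue, with a ratio of 2.02 (1.92 to 2.12). Both pineal libraries were above the other 4. The anchoring protein gene akap7 (ENSDARG00000043843), whose product tethers the kinase at membranes, went the other way, with 29.9 FPKM by day and 13.4 at night in the pineal gland and a day to night ratio of 2.23 (1.89 to 2.63). Of 7 kinase subunit genes with at least 5 FPKM in the pineal gland, 6 were above 0 and 1, prkacab, was below (-0.18). The median was 0.44, beside -0.03 over 11753 genes at that level, and 2 of the 7 were 2-fold higher (background 2.38%). Those 2 are the members, which the rule chose by this difference, and the list was written with them in view, so nothing is read from its count. Another gene with the symbol PRKAR2A (ENSDARG00000009477), under 5 FPKM in the gland, had 25.9 FPKM by day and 15.8 at night in the eye. In the broader list of cyclic AMP and calcium signalling, 6 of 49 genes passed 2-fold on the night side (background 2.38%) and 1, calm3a (-1.06), on the day side (background 2.96%). The medians over its genes present in all 3 tissues were 0.21 in the gland, 0.33 in the eye and 0.02 in mixed tissue. Beside the kinase subunits these were the transcription factor genes crema (2.27) and cremb (2.24) and the phosphodiesterase genes PDE4B (1.36) and PDE4D (1.99), which break down cyclic AMP. None of those 4 met the limits in the other tissues. crema was at -0.99 in the eye, PDE4B at 0.70 and PDE4D at 0.51, and cremb was at -0.94 in mixed tissue.

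PCBD1 (ENSDARG00000031981) encodes the dehydratase that recycles tetrahydrobiopterin after each round of hydroxylation. It had 59.1 FPKM in the pineal day library and 121 in the pineal night library, 6.42 and 6.36 in the eye and 22.4 and 25.7 in mixed tissue. Both pineal libraries stood above all others, and the night to day ratio was 2.05 (1.83 to 2.29). In the list of melatonin synthesis and cofactor genes, 7 of 23 genes with at least 5 FPKM in the pineal gland were 2-fold higher at night (background 2.38%) and 1 was lower (background 2.96%), with a list median of 0.01. PCBD1 was the single member among them. The other 6 higher ones, aanat2 (1.97), TPH1 (1.62), GCH1 (1.55), PTS (1.51), asmt2 (1.07) and DDC (1.06), differed by 0.4 or more in the eye or in mixed tissue.

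Several night-high members encode regulators of transcription. ID3 (ENSDARG00000054823), an inhibitor of basic helix-loop-helix factors, had 78.5 FPKM in the pineal day library and 239 in the pineal night library, 20.9 and 23.4 in the eye and 48.2 and 52.0 in mixed tissue. Both pineal libraries were above the other 4, with a ratio of 3.05 (2.83 to 3.29). A related gene, id2b, also differed in the pineal gland (1.51) but was at -1.76 in the eye, while ID1 (0.01) and ID4 (0.01) were level in the gland. ID2 was at 0.55 in the gland and 1.91 in the eye. ZHX3 (ENSDARG00000019774) and homeza (ENSDARG00000054304) belong to the same family of homeodomain proteins. ZHX3 had 9.06 FPKM in the pineal day library and 29.7 in the pineal night library, 8.25 and 10.6 in the eye and 16.6 and 18.5 in mixed tissue. The night pineal value was above all others, with a night to day ratio of 3.28 (2.92 to 3.68). homeza had 19.4 FPKM in the pineal day library and 53.2 in the pineal night library, 8.71 and 11.5 in the eye and 45.6 and 50.3 in mixed tissue, so its night pineal value was just above mixed tissue and its ratio was 2.75 (2.45 to 3.08). Among their paralogs ZHX2 was at 0.55 and zhx2b, under 5 FPKM in the gland, at 0.56, while homezb was at -0.27 and zhx3a at 0.04. JUND (ENSDARG00000067850), a subunit of the AP-1 factor, had 10.9 FPKM in the pineal day library and 28.1 in the pineal night library, 30.7 and 28.6 in the eye and 24.3 and 19.0 in mixed tissue. Its day pineal value was below the 4 eye and mixed values, and the night value was close to those of the eye. The ratio was 2.57 (2.35 to 2.82). The other 3 JUN family genes with at least 5 FPKM in the gland were below 0, with -1.15 and -0.39 for the pair of genes with the symbol JUNB and -0.66 for JUN, while june, under that level, was at 0.24. In the broader list of immediate early genes, 10 of 38 were 2-fold higher at night in the gland (background 2.38%) and 2 lower (background 2.96%). JUND was its only member. Over its genes present in all 3 tissues the medians were 0.17 in the gland, -0.98 in the eye and -0.31 in mixed tissue.

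Secreted and signalling proteins were found on both sides. CXCL14 (ENSDARG00000056627), a chemokine gene, had 119.5 FPKM in the pineal day library and 293 in the pineal night library, 49.8 and 44.4 in the eye and 35.1 and 30.6 in mixed tissue, and frzb (ENSDARG00000018383), which encodes a secreted Wnt antagonist, had 18.7 FPKM by day and 41.1 at night in the gland. Both were above the other tissues at both times, with ratios of 2.45 (2.33 to 2.58) and 2.20 (1.99 to 2.44). On the day side, the Notch ligand gene jag2b (ENSDARG00000021389) had 72.2 FPKM in the pineal day library and 31.1 in the pineal night library, 7.02 and 7.18 in the eye and 6.97 and 8.30 in mixed tissue. Its day value was far above those of the other tissues and its night value still above them, with a day to night ratio of 2.32 (2.19 to 2.46). The endocytic receptor gene LRP1 (ENSDARG00000097827) had 77.3 FPKM by day and 28.9 at night, 28.1 and 25.0 in the eye and 6.68 and 5.35 in mixed tissue, with a ratio of 2.67 (2.57 to 2.78). TAB1 (ENSDARG00000036613), an activator of the kinase TAK1, had 22.9 FPKM by day and 7.64 at night, 12.3 and 12.9 in the eye and 7.48 and 5.92 in mixed tissue, with a ratio of 2.99 (2.27 to 4.01). For LRP1 both pineal values were above the other tissues, and for TAB1 the night value had come within their range. The kinase gene jak2a (ENSDARG00000104808) had 15.4 FPKM by day and 6.88 at night in the gland and a ratio of 2.24 (1.94 to 2.598). Of 4 Notch ligand genes with at least 5 FPKM in the gland, only jag2b differed 2-fold (background 2.96% lower and 2.38% higher). That list was written with jag2b in view, so nothing is read from its count.

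Several night-high members act at the synapse or in membrane transport. The largest difference of all was that of CPLX3 (ENSDARG00000089486), a complexin of ribbon synapses, with 14.2 FPKM in the pineal day library and 132 in the pineal night library, 236 and 189 in the eye and 6.04 and 4.49 in mixed tissue. The eye held the highest values at both times, and the pineal gland lay between mixed tissue and the eye, nearer to mixed tissue by day and nearer to the eye at night. The ratio was 9.36 (7.52 to 11.7), from 94 reads by day and 633 at night. In the eye and in mixed tissue CPLX3 was lower at night, by -0.32 and -0.36, near the limit of 0.4. In mixed tissue the night to day ratio, taken without the added 1, was 0.74 (0.49 to 1.12). The other 5 complexin genes in the gland ranged from -0.62 to 0.37. In the ribbon synapse list 4 of 33 genes passed 2-fold on the night side and 0 on the day side (background 2.38% and 2.96%), with a median of 0.32 beside -0.03 over the 11753 genes. Over its genes present in all 3 tissues the median was 0.40 in the gland, 0.37 in the eye and -0.08 in mixed tissue. CPLX3 was the only member. PCLO (1.00) and rims2a (1.01) missed the limit in the eye, at 1.69 and 0.48, and the gene RAB3A with a pineal value of 1.27 missed it in mixed tissue, at -0.49. SLC6A17 (ENSDARG00000068787), a vesicular amino acid transporter gene, and sytl2a (ENSDARG00000061956), which encodes a Rab27 effector, had ratios of 2.27 (2.11 to 2.44) and 2.32 (2.01 to 2.68). LAPTM4B (ENSDARG00000035870), a lysosomal membrane protein gene, was the most abundant night-high member, with 196 FPKM in the pineal day library and 576 in the pineal night library, 385 and 388 in the eye and 26.9 and 27.9 in mixed tissue. The gland was below the eye by day and above it at night, and the night to day ratio was 2.94 (2.87 to 3.02).

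The glutamine transporter gene SLC38A5 (ENSDARG00000009901) had 4.68 FPKM in the pineal day library and 15.2 in the pineal night library, 112 and 129.6 in the eye and 12.6 and 9.82 in mixed tissue. The gland stayed far below the eye, and the ratio was 3.25 (2.75 to 3.84). The mitochondrial nucleotide carrier gene SLC25A33 (ENSDARG00000039931) had 27.7 FPKM by day and 74.7 at night, 46.6 and 40.2 in the eye and 36.2 and 39.2 in mixed tissue, with a ratio of 2.70 (2.43 to 3.01). By day the gland was the lowest library and at night the highest. The glucose transporter gene slc2a3a (ENSDARG00000013295) had 14.3 FPKM by day and 37.4 at night, 30.7 and 40.5 in the eye and 5.94 in mixed tissue by day, where the night difference was 0.05, with a ratio of 2.61 (2.37 to 2.88). Both genes with the symbol SLC2A1, another glucose transporter, had the opposite sign (-1.19 and -0.93). SLK (ENSDARG00000012574), which encodes a kinase of the STE20 family, had 21.2 FPKM by day and 61.4 at night, 39.9 and 40.3 in the eye and 5.67 and 6.56 in mixed tissue. Only the night gland was above the eye, and the ratio was 2.89 (2.72 to 3.08). PRELP (ENSDARG00000070597), a matrix proteoglycan, had 2.14 FPKM in the pineal day library and 8.03 in the pineal night library, 18.0 and 13.8 in the eye and 7.76 and 5.81 in mixed tissue. It was the lowest library by day and between eye and mixed tissue at night, with a ratio of 3.75 (2.69 to 5.30).

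**Figure D2:**
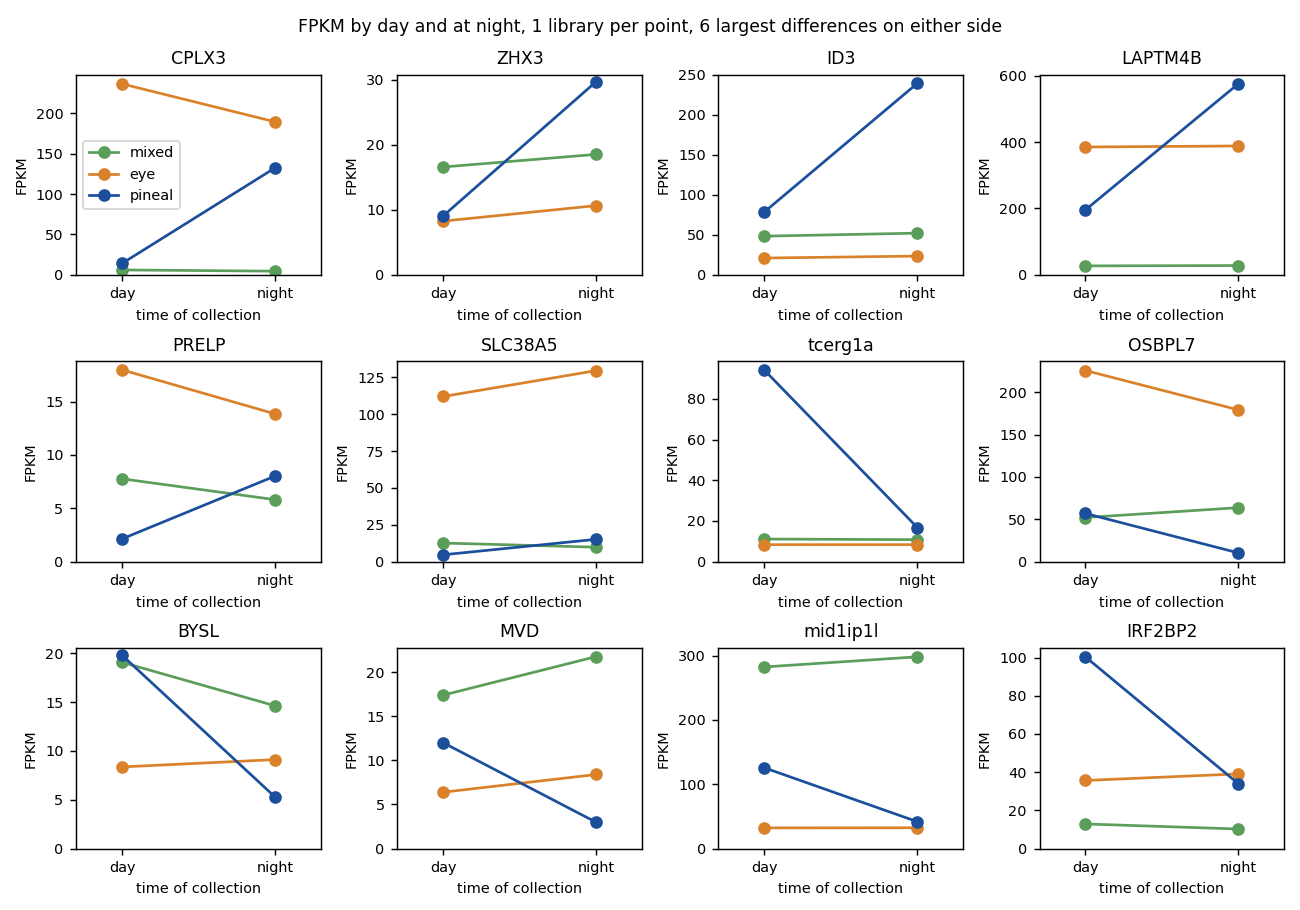
FPKM by day and at night for the 6 members with the largest difference on either side, 1 library per point, for the pineal gland (blue), the eye (orange) and mixed tissue (green), on linear axes from 0. Lines show absolute FPKM, so a high tissue can have a steep line at a small ratio, as the eye does for SLC38A5 and OSBPL7. tcerg1a goes from 94.2 to 16.7 FPKM in the gland beside 8.36 and 8.36 in the eye, and CPLX3 from 14.2 to 132.

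On the day side, glycolysis was represented by 2 aldolase genes and a pyruvate kinase gene. ALDOC (ENSDARG00000019702), the aldolase of nervous tissue, had 436 FPKM in the pineal day library and 179 in the pineal night library, 442 and 440.2 in the eye and 101 and 84.7 in mixed tissue. The day value was close to that of the eye and the night value lay between eye and mixed tissue, with a day to night ratio of 2.44 (2.34 to 2.54). ALDOA (ENSDARG00000011665) had 226 FPKM by day and 105 at night, with a ratio of 2.16 (2.04 to 2.29), and PKM (ENSDARG00000099730) 191 FPKM by day and 90.3 at night, with 2.12 (2.01 to 2.23). Other genes with the symbols ALDOC and PKM were under 5 FPKM in the gland. The other ALDOC (ENSDARG00000057661) had 0.88 FPKM by day and 34.5 at night in the eye. The other PKM (ENSDARG00000099860) had 40.3 and 19.7 in mixed tissue. In the list of glycolysis and glucose genes 7 of 41 were 2-fold lower at night (background 2.96%) and 2 higher (background 2.38%). These counts include 4 members, which the rule chose by this difference: ALDOA, ALDOC and PKM among the lower genes and slc2a3a among the higher. In the list 30 genes were below 0 (background 53.4%), with a median of -0.27. Among the genes at least 5 FPKM in all 3 tissues the list's medians were -0.27 in the pineal gland, -0.01 in the eye and -0.20 in mixed tissue, beside -0.06, 0.08 and 0.02 over all 8528 genes.

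Lipid metabolism gave some of the largest day-high differences. MVD (ENSDARG00000099336), an enzyme of the mevalonate pathway to cholesterol, had 12.0 FPKM in the pineal day library and 2.97 in the pineal night library, 6.39 and 8.40 in the eye and 17.4 and 21.8 in mixed tissue. It was lowest in the night gland and slightly higher at night elsewhere, with a day to night ratio of 4.04 (2.74 to 6.13) from 174 and 31 reads. OSBPL7 (ENSDARG00000012981), from the family of oxysterol-binding proteins, had 56.9 FPKM in the pineal day library and 10.3 in the pineal night library, 226 and 179 in the eye and 52.1 and 63.7 in mixed tissue. The gland lay within the range of mixed tissue by day and lay below both other tissues at night, with a ratio of 5.51 (4.90 to 6.22). mid1ip1l (ENSDARG00000018145), related to a protein that stimulates acetyl-CoA carboxylase, had 126 FPKM by day and 41.7 at night, 32.1 and 32.2 in the eye and 282 and 298 in mixed tissue, with a ratio of 3.01 (2.72 to 3.34). The gland lay between the eye and mixed tissue at both times. ACLY (ENSDARG00000099079), which makes cytosolic acetyl-CoA, and GPAT4 (ENSDARG00000019897), which starts glycerolipid synthesis, had ratios of 2.42 (2.26 to 2.59) and 2.17 (1.86 to 2.53). Opposite to these, AACS (ENSDARG00000012468), which activates acetoacetate for lipid synthesis, was night-high, with 55.9 FPKM by day and 118 at night, 14.8 and 15.1 in the eye and 16.9 and 18.7 in mixed tissue. Both pineal values were above all others, and the ratio was 2.12 (1.99 to 2.25). In the sterol and fatty acid list 9 of 36 genes were 2-fold lower at night (background 2.96%) and 0 higher, and 32 were below 0 (background 53.4%), with a median of -0.45. The largest was ldlrb (-3.01), a low density lipoprotein receptor gene, at 0.48 in the eye and -0.76 in mixed tissue. The regulator gene srebf2 was at -2.04, with 0.31 and -0.74. Its medians over genes present in all 3 tissues were -0.36 in the gland, 0.21 in the eye and -0.18 in mixed tissue. ACLY and MVD were its members. A list of acetyl-CoA and acyl chain enzyme genes, written after the members were seen, had a median of -0.07 in the gland. Of its 20 genes with at least 5 FPKM there, 8 were above 0 and 12 below. In it 4 were 2-fold lower (background 2.96%) and 1 higher (background 2.38%), and all 5 are members. GPAM was at 0.79 and MID1IP1 at 0.52, opposite in sign to GPAT4 and mid1ip1l.

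Several mitochondrial enzymes were on the day side. ACADM (ENSDARG00000038900), the medium-chain acyl-CoA dehydrogenase, had 169 FPKM by day and 72.5 at night, 43.4 and 33.8 in the eye and 222 and 178 in mixed tissue. GCDH (ENSDARG00000037057), an enzyme of lysine breakdown, had 85.3 FPKM by day and 41.8 at night, 38.2 and 29.6 in the eye and 33.6 and 25.8 in mixed tissue. For GCDH both pineal values were above all others, while for ACADM they lay between the eye and mixed tissue. In the gland CYC1 (ENSDARG00000038075), a subunit of respiratory complex III, had 134 FPKM by day and 64.2 at night. COX15 (ENSDARG00000075933), which makes heme A, had 13.3 FPKM by day and 5.48 at night. PDHX (ENSDARG00000051756), a subunit of the pyruvate dehydrogenase complex, had 7.82 FPKM by day and 3.05 at night, from 96 and 27 reads. The other genes of that complex ranged from -0.33 to -0.03 in the gland, and the median over all 5 was -0.14. All 10 acyl-CoA dehydrogenase genes at 5 FPKM or more in the gland were below 0 (median -0.40), beside 53.4% of the 11753 genes. The 2 that passed 2-fold (background 2.96%) are the members, with which in view the list was written. Over its genes present in all 3 tissues, the medians were -0.36 in the gland, 0.04 in the eye and -0.28 in mixed tissue. tfr1b (ENSDARG00000077372), a transferrin receptor gene that brings iron into cells, had 71.1 FPKM in the pineal day library and 27.0 in the pineal night library, 43.0 and 33.96 in the eye and 67.9 and 69.2 in mixed tissue. By day the gland was just above the other tissues and at night below them, with a ratio of 2.63 (2.45 to 2.84).

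Members that act in ribosome assembly were BYSL (ENSDARG00000001057), DDX21 (ENSDARG00000063626) and WDR46 (ENSDARG00000095879). BYSL, needed to finish the small subunit, had 19.8 FPKM in the pineal day library and 5.27 in the pineal night library, 8.37 and 9.12 in the eye and 19.1 and 14.6 in mixed tissue. The day gland was level with mixed tissue and the night gland was the lowest library, with a ratio of 3.76 (2.86 to 5.003). DDX21 and WDR46 had ratios of 2.15 (1.92 to 2.40) and 2.305 (1.81 to 2.96). In a list of ribosome biogenesis genes written after the members were known, 71 of 78 were below 0 in the gland, beside 53.4% of the 11753 genes, and 6 were 2-fold lower (background 2.96%) and 0 higher. The 3 members are among those 6. Its medians over genes present in all 3 tissues were -0.47 in the gland, -0.28 in the eye and 0.08 in mixed tissue. The list median was thus below 0 in the eye too. DHODH (ENSDARG00000051889), of pyrimidine synthesis, had 7.71 FPKM by day and 2.42 at night, 6.18 and 5.53 in the eye and 25.6 and 26.1 in mixed tissue, with a ratio of 3.19 (2.13 to 4.91). IMPDH2 (ENSDARG00000006900), an enzyme of guanine nucleotide synthesis, had 22.4 FPKM by day and 9.74 at night, 9.74 and 9.73 in the eye and 57.8 and 56.7 in mixed tissue, with a ratio of 2.298 (1.95 to 2.72). Mixed tissue was highest for both. Both genes with the symbol IMPDH1 were higher at night in the gland, at 48.1 and 64.8 FPKM and at 24.95 and 29.9 FPKM (day and night). A list of purine and pyrimidine synthesis genes, written after the members were seen, had 13 of 19 below 0 (background 53.4%). Its median was -0.19, and the 2 genes that were 2-fold lower (background 2.96%) are the members.

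Protein folding, protein degradation and nuclear import each had members on the day side. TCP1 (ENSDARG00000017891), a subunit of the cytosolic chaperonin TRiC, had 117 FPKM by day and 54.4 at night, 66.9 and 59.1 in the eye and 100.4 and 81.0 in mixed tissue. The day gland was the highest library and the night gland the lowest. PSMD3 (ENSDARG00000018124), of the proteasome's regulatory particle, had 39.4 FPKM by day and 17.5 at night in the gland, and PSMG1 (ENSDARG00000040620), a proteasome assembly chaperone, 21.1 FPKM by day and 9.08 at night. The importin gene KPNB1 (ENSDARG00000104889) had 30.4 FPKM by day and 13.6 at night, 23.6 and 23.5 in the eye and 48.0 and 41.5 in mixed tissue, and the night gland was the lowest library. In the gland 7 of 8 chaperonin genes were below 0 (median -0.57), 21 of 22 regulatory particle genes (median -0.27) and 12 of 13 importin genes (median -0.19), beside 53.4% of the 11753 genes. In each, 1 gene, the member, was 2-fold lower (background 2.96%). These lists were written with the members in view and include them. Over their genes present in all 3 tissues, the eye medians were -0.05, 0.10 and 0.02.

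tcerg1a (ENSDARG00000098822), a regulator of transcription elongation, had the largest day-high difference, with 94.2 FPKM in the pineal day library and 16.7 in the pineal night library, 8.36 and 8.36 in the eye and 11.1 and 10.8 in mixed tissue. Both pineal values were above the other 4, which were nearly level. The day to night ratio was 5.62 (5.13 to 6.17). IRF2BP2 (ENSDARG00000098635), a transcriptional corepressor gene, had 100.3 FPKM by day and 33.9 at night, 35.6 and 39.1 in the eye and 12.9 and 10.2 in mixed tissue, with a ratio of 2.96 (2.70 to 3.25). Its day value was above the other tissues and its night value just below the eye. The splicing and RNA processing genes SNRPB (ENSDARG00000011125) and CSTF2 (ENSDARG00000090788) had ratios of 2.33 (1.98 to 2.75) and 2.15 (1.83 to 2.52). KHDC4 (ENSDARG00000035023), an RNA-binding protein gene, had 20.1 FPKM by day and 7.07 at night, 18.1 and 16.6 in the eye and 7.01 and 5.20 in mixed tissue, with a ratio of 2.84 (2.40 to 3.39). In the list of splicing and RNA-binding genes, which held none of these, 37 of 47 were below 0 (background 53.4%) with a median of -0.25, and 1 was 2-fold lower (background 2.96%). si:dkey-100n23.3 (ENSDARG00000062148) had 53.4 FPKM by day and 18.4 at night, 15.5 and 14.6 in the eye and 25.8 and 30.1 in mixed tissue, with a ratio of 2.90 (2.63 to 3.197). The remaining named members on the day side were EEPD1, STMN4, SLC25A10, eif4e2rs1, serpinb1l3, FUBP3, cldn33b, EMSY, C1QBP, TMEM11, CORO1A, MYG1, zgc:65895, ELAC1, PRMT6 and FAM53B, with pineal differences down to -1.33. On the night side they were SBNO2, LGALSL, TANGO2 and COL4A1, from 1.03 to 1.18. A further 3 day-high and 1 night-high members had no symbol.

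**Figure D3:**
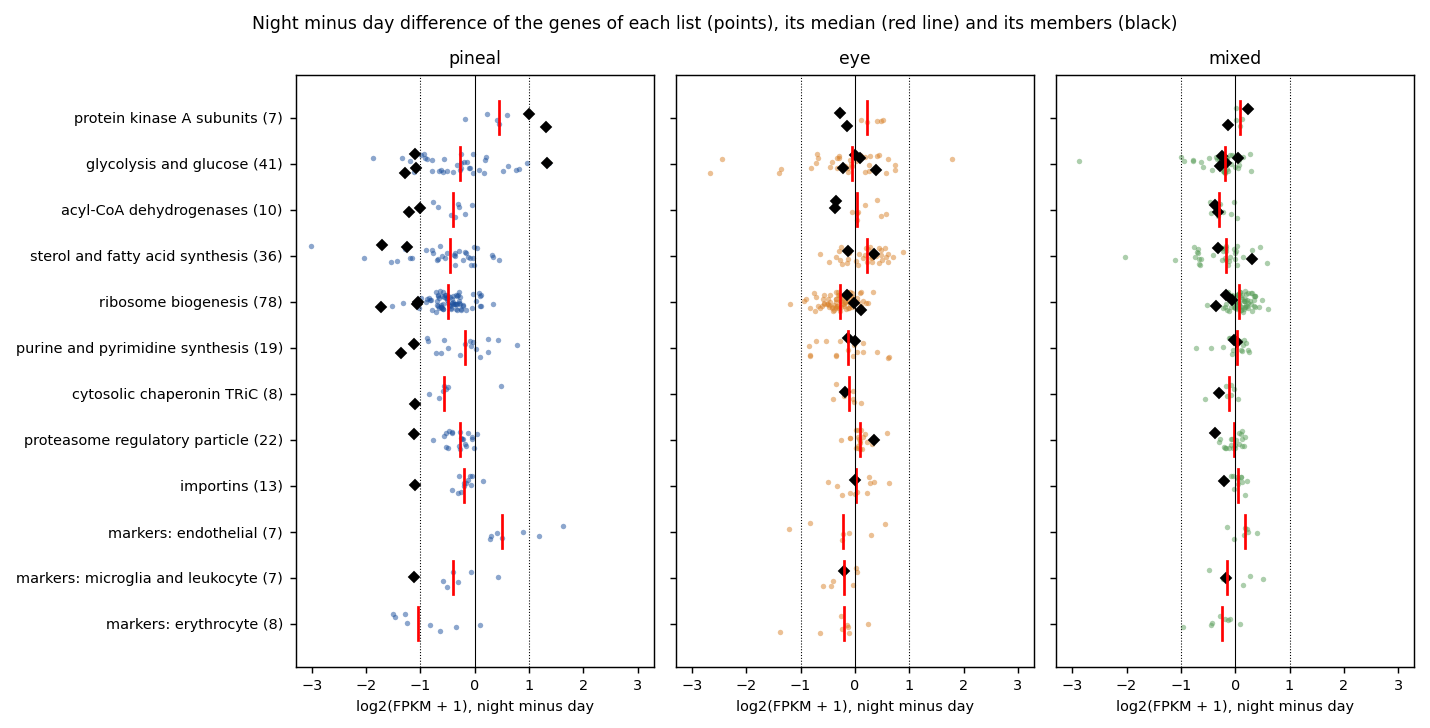
Night minus day difference in log2(FPKM + 1) of the genes in 9 lists and 3 marker lists with at least 5 FPKM in the pineal gland (number in parentheses), in the pineal gland, the eye and mixed tissue; red lines are medians, black diamonds the members and dotted lines a difference of 1. In the gland the ribosome biogenesis, chaperonin and proteasome points lie mostly left of 0, with medians of -0.49, -0.57 and -0.27. The protein kinase A subunits lie mostly right of 0, with a median of 0.44. The median over all 11753 genes at that level was -0.03. Apart from the glycolysis and the sterol and fatty acid lists, the 9 lists were written after the members were seen. The other marker lists are not drawn.

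Markers of other cell types were also compared between the 2 pineal pools. Over the 11753 genes with at least 5 FPKM in the gland, 46.6% were higher and 53.4% lower at night. The marker counts below also include markers under that level. All 7 endothelial markers were higher in the night pool, with a summed level of 79.1 FPKM by day and 129 at night. COL4A1 (ENSDARG00000055009), a basement membrane collagen and night-high member, had 9.35 FPKM by day and 20.1 at night. Of 5 type IV collagen genes with at least 5 FPKM in the gland, 3 were above 0 and 2 below. COL4A1, with which in view that list was written, was the only 1 of them 2-fold higher (background 2.38%). Of 9 leukocyte and microglia markers 8 were lower at night (695 and 501 FPKM summed). CORO1A (ENSDARG00000054610), itself one of those markers and a day-high member, had 33.2 FPKM by day and 14.7 at night. Of 9 erythrocyte markers 7 were lower and 1 higher at night (278 and 169 FPKM summed), and 1 was at 0 in both pineal libraries. Of 17 brain neuron markers 11 were higher at night (414 and 538 FPKM), as were 7 of 10 fibroblast and skin markers (245 and 269) and 7 of 12 glia markers, whose sum was lower (969 and 815). Of 13 lens and eye markers 8 were higher and 3 lower at night (1170 and 1539 FPKM), and 2 were at 0, beside 9.03 and 7.38 FPKM in mixed tissue. Of 7 habenula markers 5 were higher (20.9 and 29.4 FPKM). Only 3 habenula and 9 brain neuron markers reached 5 FPKM in the gland. At that level the median difference was -0.08 for glia markers and 0.04 for fibroblast and skin markers, so nothing is read from their counts. The part of these cells in the members' differences was not tested.

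The rule did not name where the pineal values lie among the other 4 libraries. Of the 25 night-high members 20 were above all eye and mixed libraries at night, beside 21.0% of the 8528 genes, and 7 by day (background 22.3%). For 12 of them the day value lay within the range of the other tissues and the night value above it. Of the 54 day-high members 29 were above all 4 other libraries by day (background 22.3%) and 31 were below all 4 at night (background 25.1%); 12 did both. A difference of at least 2-fold moves one of the pineal values outward, so these counts are in part fixed by the choice of members.

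Tissue levels over both times were compared with limma, with tissue and time as terms, on 21325 genes. Calls needed a 2-fold difference and limma p below 0.05 after Benjamini-Hochberg adjustment over all genes tested. These tests take as error whatever tissue and time, added together, leave unexplained in the 6 pools, and the rule made that large: the median residual SD was 0.476 for the members and 0.174 for the 8528 genes. Against mixed tissue 23 members were called higher in the pineal gland (background 14.2% of the 8528 genes) and 11 lower (background 17.4%), 34 in all (background 31.6%). Quantile normalization gave 27 and 7. The night-high members supplied 14 of the 23 higher calls and 0 of the lower ones. Their median log2 difference was 1.43, beside -0.09 over the 8528 genes. The day-high members gave 9 higher and 11 lower, with a median of -0.15. The pineal means hold the same day and night values whose difference chose the members. A high night value raises the mean and a low one lowers it, so this split is in part shaped by the choice of members. The 14 night-high calls became 9 without the mixed day library and 2 without mixed night, and without pineal night 11 were called higher and 4 lower. The day-high calls became 16 higher and 4 lower without pineal night, 7 and 20 without pineal day, 4 and 2 without mixed day, 5 and 0 without mixed night, and 12 and 5 after median ratio rescaling. All 34 calls became 15 without mixed day and 7 without mixed night. Median ratio rescaling gave 26 higher and 5 lower.

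The tissue differences from mixed tissue were largest for LAPTM4B, which was higher in the gland by 3.57 (SE 0.41, limma adjusted p 0.00102), and for zgc:65895 (ENSDARG00000034086), by 3.19 (SE 0.33, limma adjusted p 0.000716). CPLX3 was higher by 2.86 (SE 0.87, limma adjusted p 0.0333), LRP1 by 2.79 (SE 0.33, limma adjusted p 0.00114) and jag2b by 2.49 (SE 0.36, limma adjusted p 0.00246). On the other side, DHODH was at -2.30 (SE 0.36, limma adjusted p 0.00332), mid1ip1l at -1.99 (SE 0.42, limma adjusted p 0.00964), IMPDH2 at -1.88 (SE 0.31, limma adjusted p 0.00395) and WDR46 at -1.79 (SE 0.30, limma adjusted p 0.00403). MVD, at -1.51 (SE 0.53, limma adjusted p 0.052), was not called. Against the eye 12 members were called higher in the pineal gland (background 6.85%) and 3 lower (background 5.86%), 15 in all (background 12.7%). PCBD1 was higher by 3.54 (SE 0.28, limma adjusted p 0.000991), the claudin gene cldn33b (ENSDARG00000015964) by 3.23 (SE 0.28, limma adjusted p 0.0013), jag2b by 2.58 (SE 0.36, limma adjusted p 0.00521), ID3 by 2.58 (SE 0.39, limma adjusted p 0.00645), AACS by 2.37 (SE 0.29, limma adjusted p 0.00322) and PRKAR2A by 1.39 (SE 0.32, limma adjusted p 0.0242). The lower ones were SLC38A5 at -3.66 (SE 0.43, limma adjusted p 0.00302), OSBPL7 at -2.98 (SE 0.61, limma adjusted p 0.0172) and STMN4 at -1.23 (SE 0.28, limma adjusted p 0.0247). The 15 calls became 24 without pineal day, 26 without pineal night, 8 without eye night and 6 without either mixed library. Between eye and mixed tissue 16 members were higher in the eye (background 15.9%) and 12 lower (background 19.8%), 28 in all (background 35.6%), and 14 without mixed day or 8 without mixed night. The members called higher in the gland than in both other tissues were PCBD1, cldn33b, jag2b, ID3, AACS, tcerg1a, CXCL14, PRKAR2A and frzb.

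**Figure D4:**
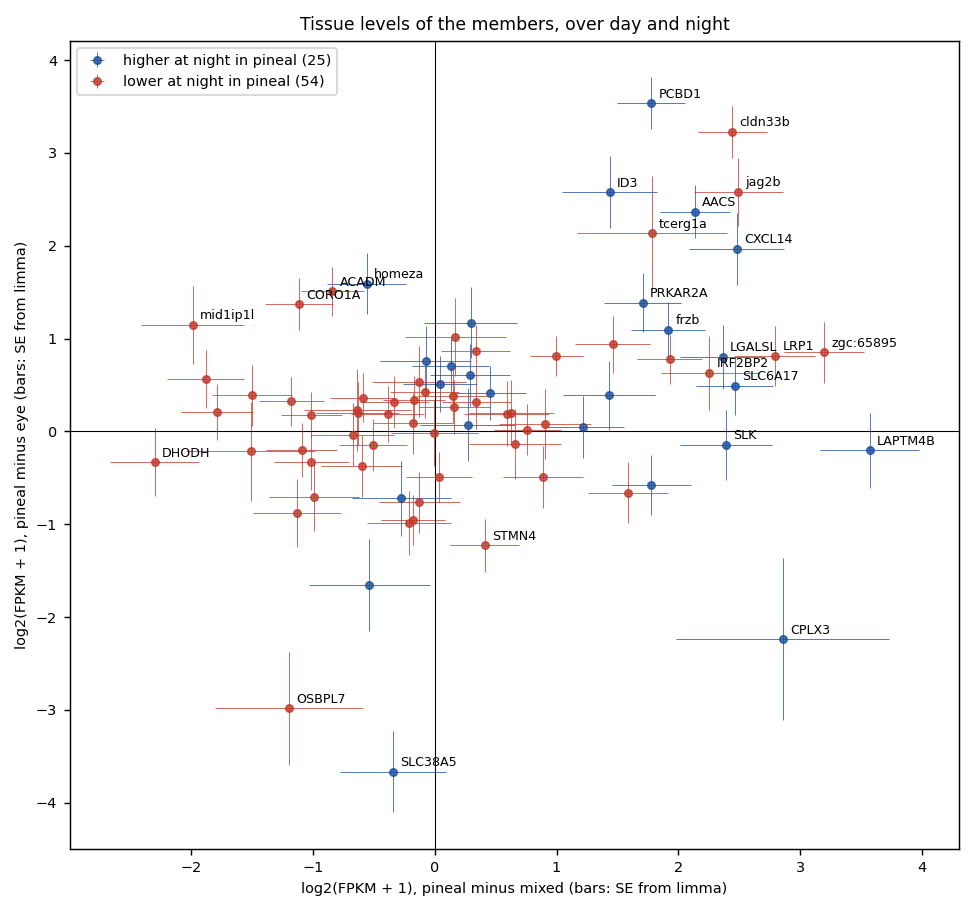
Log2(FPKM + 1) difference of each member between the pineal gland and mixed tissue (horizontal axis) and between the pineal gland and the eye (vertical axis), over day and night, with limma standard errors as bars; blue members were higher and red members lower at night in the gland. PCBD1, cldn33b, jag2b, ID3 and AACS lie at the upper right, higher than in both other tissues, and SLC38A5 and OSBPL7 lie far below 0 on the vertical axis.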

How the data were processed

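The authors deposited 1 table of FPKM values for 32105 genes. Per the submitters' processing notes, FastQC, STAR 2.3.0e, featureCounts of the Subread package and DESeq2 were used with the danRer10 build, and per the labels the libraries were of poly-A RNA. No source used here gives the gene annotation. FPKM values divide by gene length and library size but not by composition, so a few abundant transcripts can shift all others. A further 3 columns, of means, were left unused. A table of IDs and symbols named 26269 genes, many by the human symbol, and 15 members share their symbol with another ID. Of the members, 2 are counted but not reported here by name. Genome coordinates and sequences were not used here.

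Each gene moves in steps worth 1 read, and dividing by the step gave whole numbers of reads within 0.02 read for all 27233 genes above 0, and 145978 of 146167 values were rebuilt to within 1e-06 FPKM. These units may be reads or fragments. Intervals would be too narrow where mates of a pair were counted apart. Total reads were 11045259 and 7949224 (pineal day and night), 15016838 and 13418642 (eye) and 15708307 and 15950819 (mixed).

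Tissues were compared with limma 3.58.1 (R 4.3.3) on log2(FPKM + 1), with a mean trend, keeping genes that reached 1 FPKM in at least 2 libraries (2 residual and 3.46 prior degrees of freedom; two-sided). As the labels name 1 pool per tissue and time, p-values measure only the spread between these pools. Fold changes on this scale are understated for low genes. Recovery and limma were tested on simulated data. The alternatives were other pseudocounts, filters, scalings and a tissue term alone, voom on the recovered reads and leaving out each library. The members and lists were chosen with earlier results of these data known, and the family lists (kinase subunits, ribosome biogenesis, chaperonin, proteasome particle, importins and the like) after the members were seen. The members named with full values were to be the 12 largest differences on either side, the 5 largest and smallest tissue differences, those next to a limit, list members, and members that share a family or pathway.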

Additional observations from a re-analysis of the deposited data

Results flagged for a closer look

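For 5 members the eye and mixed libraries both differed between night and day in the direction opposite to the pineal gland, beyond counting error in each. The difference between the tissues was not tested, since each had 1 library per time point. The share of the 8528 genes with such a pattern was not computed. Counting error does not cover library scaling, and median ratio rescaling moved the eye median over the 8528 genes from 0.08 to -0.02. The night minus day log2 value in the pineal gland was 1.52 for PRELP (ENSDARG00000070597), an extracellular matrix proteoglycan, beside -0.35 in the eye and -0.36 in mixed tissue. It was 1.29 for JUND, beside -0.10 and -0.34. CXCL14 was at 1.29, with -0.16 and -0.19 elsewhere, and PRKAR2A at 1.00, with -0.14 and -0.13. MVD was the single day-high case, at -1.71 in the gland, 0.35 in the eye and 0.31 in mixed tissue.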

How the results depend on the processing

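The number of members was 91 with a pseudocount of 0.1 (25 higher and 66 lower at night), 78 after median ratio rescaling (35 and 43) and 67 after quantile normalization (27 and 40). Of the 79 members 72, 58 and 61 were kept in these settings, and none changed sign in the pineal gland under either rescaling. Without a minimum level there were 275 genes (132 higher and 143 lower), and with at least 10 FPKM 39 (14 and 25). Members called against mixed tissue in the pineal gland numbered 34, and 30 to 35 under the other pseudocount, filter, scalings, test and model; leaving out 1 library gave 7 to 41. Against the eye there were 15 calls, 13 to 17 under those alternatives and 6 to 26 with 1 library left out, the lowest without mixed day or mixed night. In eye against mixed tissue there were 28 calls, with 26 to 31 and 8 to 31. Leaving out a library left 1 residual degree of freedom, and its tissue then had 1 library assumed to vary like the rest. No paired analysis was possible because each tissue and time point had 1 library and the labels number no replicates. The low depth of the pineal night library limits the night-low members, the lowest of which had 27 reads there.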
